A study of Homo sapiens with 10 samples.

Results

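The histone genes of chromosome 6 were taken as all protein-coding genes on chr6 of hg38 (GENCODE release 44) whose symbol begins with H1-, H2AC, H2BC, H3C or H4C. This gave 55 of the 20033 protein-coding genes on chromosomes 1 to 22, X and Y, with 6 genes for H1, 12 for H2A, 15 for H2B, 10 for H3 and 12 for H4. The rule used symbols and positions and no measured value. All values come from ChIP-seq peak lists of HEK-293T cells, a transformed human embryonic kidney line. CT cells had been transduced with a lentivirus for a non-targeting shRNA and KD cells with lentiviruses for shRNA against several regions of the CGGBP1 reading frame, and both were selected with puromycin. OE cells had been transduced with a lentivirus for CGGBP1-FLAG, so that CGGBP1, a DNA-binding protein, was endogenous in CT, depleted in KD and overexpressed in OE. CTCF was measured in CT, KD and OE, the marks H3K4me3, H3K9me3 and H3K27me3 in CT and KD, and 1 input came from transduced cells of a kind not stated in the sources used here. A list of peaks cannot show how far CGGBP1 was lowered or raised. Each target had 1 library per condition, so no difference between conditions has a replicate check, no p-value is given, and the reads behind a peak are not known from the lists.

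Histones are the proteins around which DNA is wound. H2A, H2B, H3 and H4 form the core of the nucleosome, and H1, the linker histone, binds where DNA enters and leaves it. Most of these genes are transcribed in S phase, when newly copied DNA has to be packaged, and their messages end in a short stem-loop, bound by SLBP, in place of a poly(A) tail. NPAT gathers at the clusters and activates them. H3K4me3 marks nucleosomes beside active or poised transcription starts, H3K9me3 and H3K27me3 are marks of repressed chromatin, and CTCF binds a long DNA motif and takes part in chromatin loops and boundaries.

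The cluster ran from 25723397 to 27893891 on chr6. With neighbours more than 200 kb apart taken as separate, the genes fell into 4 blocks. Block 1 held H2AC1 and H2BC1, which encode testis forms of H2A and H2B (chr6:25723397-25727345). Block 2 held 32 genes from H1-1 to H4C8 (chr6:26017032-26285638), block 3 held 5 genes from H2BC11 to H2AC12 (chr6:27125897-27147562), and block 4 held 16 genes from H2BC13 to H2BC17 (chr6:27807479-27893891). The canonical transcript of all 55 was a single exon of 386 to 797 bp (median 486 bp). For 10 members the annotated gene exceeds 2 kb through longer alternative transcripts. The longest is H2BC4 with 37610 bp, whose annotated extent takes in other genes. Windows of a gene and 1 kb on each side overlapped that of another member for 42 of the 55, so members share peaks and are not independent.

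The sequences show what the family has in common. In the 150 bases after the stop codon the stem-loop was found in all 55 members, with 0 mismatches to the searched pattern in 52 and with 1 in H3C6, H2BC10 and H4C13. It began a median of 38 bases after the stop codon (25 to 65). There were 9 versions, of which the most frequent stood in 31 members. It is shown for H2AC6 beside the form of H4C2, which only H4 genes had, and the loop variants of H2BC4 and H3C6, 5′ to 3′ as DNA of hg38, with the 6-base arms in capitals around the 4-base loop.
H2AC6: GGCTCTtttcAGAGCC
H4C2: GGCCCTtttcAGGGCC
H2BC4: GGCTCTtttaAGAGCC
H3C6: GGCTCTtctcAGAGCC
In all 4 the arms are complementary. They lie at chr6:26124669-26124684 (plus strand), chr6:26026901-26026916 (minus strand), chr6:26123472-26123487 (minus strand) and chr6:26225596-26225611 (plus strand), each 5 or 6 bases before the annotated end of the transcript. The arms of H2AC11 and H2AC15, which also match the searched pattern with 0 mismatches, are not fully complementary.

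Upstream, the classes differed in the motifs of their promoters. RefSeq (GRCh38.p14) gave promoters of 300 bases, 250 before and 50 after the start, for 50 of the 55 members by symbol. H4C1, H4C3, H3C11, H2AC12 and H3C12 were not matched. CCAAT, the element bound by NF-Y, was searched with its complement ATTGG and was present in all matched promoters of H1 (6 of 6), H2A (11 of 11), H2B (15 of 15) and H3 (8 of 8) and in 3 of 10 of H4, against 34.6% of all 35116 promoters of the table. TATAAA or TTTATA was present in 33 of 50 members (66%) against 11.5%. ATTTGCA or TGCAAAT, the core of the octamer bound by POU2F1, was found in 9 of 11 H2A, 12 of 15 H2B and 1 of 8 H3 promoters and in none of H1 and H4, against 4.2%. AAACACA or TGTGTTT, the H1 box, stood in 6 of 6 H1 promoters and in 0 matched promoters of the other classes, against 5.64%. H2A and H2B genes that start back to back share most of a promoter and hence its letters. A match says only that these letters are in the window.

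**Figure D1:**
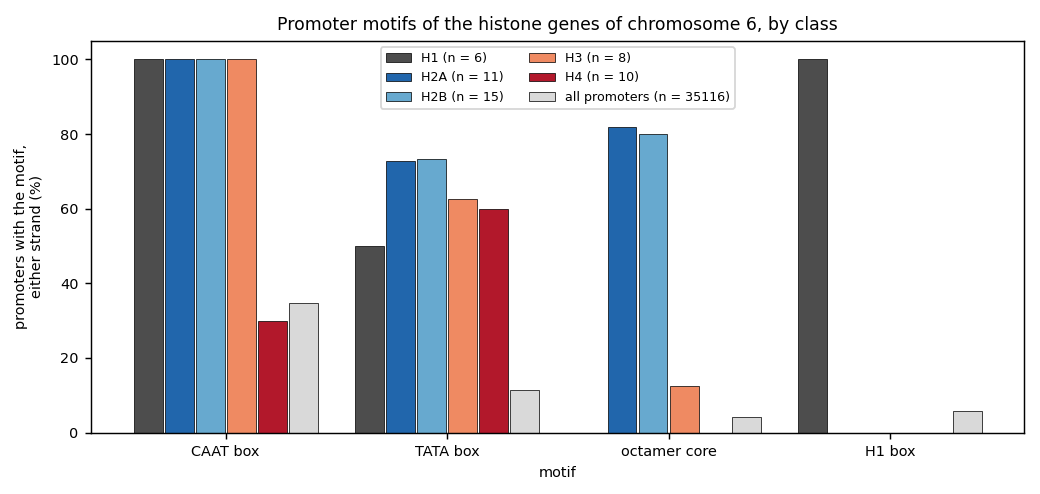
Percent of promoters of 300 bases that hold each of 4 motifs on either strand, for the matched histone genes of chromosome 6 by class and for all 35116 promoters of the RefSeq table. The octamer core reaches 81.8% in H2A and 80% in H2B, and the H1 box 100% in H1.

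The 250 bases before the start are shown for 5 members, 5′ to 3′ along the gene, with every match to the 4 motifs in capitals. H1-4 stands for the linker histones, H2AC6 for the H2A and H2B genes that start back to back, and H4C2 for the class with few CCAAT matches and for a start with a CTCF peak within 1 kb in every CTCF list. H2AC13 and H2AC14 are near copies, of which only the first had H3K4me3.
H1-4: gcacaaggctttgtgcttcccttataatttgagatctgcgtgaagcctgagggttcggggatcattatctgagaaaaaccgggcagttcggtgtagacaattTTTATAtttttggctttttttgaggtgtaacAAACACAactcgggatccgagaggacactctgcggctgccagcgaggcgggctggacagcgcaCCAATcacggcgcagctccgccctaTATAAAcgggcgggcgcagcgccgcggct
H2AC6: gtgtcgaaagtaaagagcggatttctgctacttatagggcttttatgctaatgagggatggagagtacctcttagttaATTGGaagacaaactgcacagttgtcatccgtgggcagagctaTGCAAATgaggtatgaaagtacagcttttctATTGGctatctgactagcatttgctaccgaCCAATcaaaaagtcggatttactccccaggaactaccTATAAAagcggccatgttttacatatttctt
H4C2: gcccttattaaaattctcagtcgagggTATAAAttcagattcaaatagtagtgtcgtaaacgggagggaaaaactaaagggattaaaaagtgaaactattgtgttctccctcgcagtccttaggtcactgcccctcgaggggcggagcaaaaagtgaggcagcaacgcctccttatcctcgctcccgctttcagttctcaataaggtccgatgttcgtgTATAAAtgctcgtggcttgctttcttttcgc
H2AC13: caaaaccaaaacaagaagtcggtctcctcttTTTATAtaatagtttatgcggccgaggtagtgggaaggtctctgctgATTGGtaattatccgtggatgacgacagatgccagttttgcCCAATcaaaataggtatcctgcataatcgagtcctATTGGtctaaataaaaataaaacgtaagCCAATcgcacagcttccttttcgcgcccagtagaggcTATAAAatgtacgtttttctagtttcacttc
H2AC14: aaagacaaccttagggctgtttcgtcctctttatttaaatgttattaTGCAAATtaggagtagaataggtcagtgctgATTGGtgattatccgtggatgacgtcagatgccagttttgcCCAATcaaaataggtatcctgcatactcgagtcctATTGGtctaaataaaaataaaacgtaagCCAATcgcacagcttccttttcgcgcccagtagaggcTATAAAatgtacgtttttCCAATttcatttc
They lie at chr6:26156079-26156328 (plus strand), chr6:26123922-26124171 (plus strand), chr6:26027284-26027533 (minus strand), chr6:27807923-27808172 (plus strand) and chr6:27814778-27815027 (minus strand), in that order. H4C2 held 2 matches to TATAAA and 0 to CCAAT, and H2AC14, without the mark, held 5 to CCAAT and 1 to the octamer core, which H2AC13 lacked.

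H3K4me3 covered most of the family, on the same members in CT and KD. A peak over the gene or 1 kb on each side was present for 40 of 55 members in CT (72.7%, exact Clopper-Pearson 95% interval 59.0 to 83.9%) and for the same 40 in KD. Over all protein-coding genes this window held a peak for 80.4% in CT and 81.4% in KD, at a median gene length of 27.5 kb against 495 bp for the members. In windows of equal size, 1 kb on each side of the canonical start, 37 of 55 members (67.3%, interval 53.3 to 79.3%) had a peak in CT and the same 37 in KD, against 69.7% and 70.4% of all genes. The shares at the start lay close to these backgrounds. No member had a peak in CT only or in KD only, against 0.709% and 1.69% of all genes. The intervals cover counting error only and treat members as independent.

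**Figure D2:**
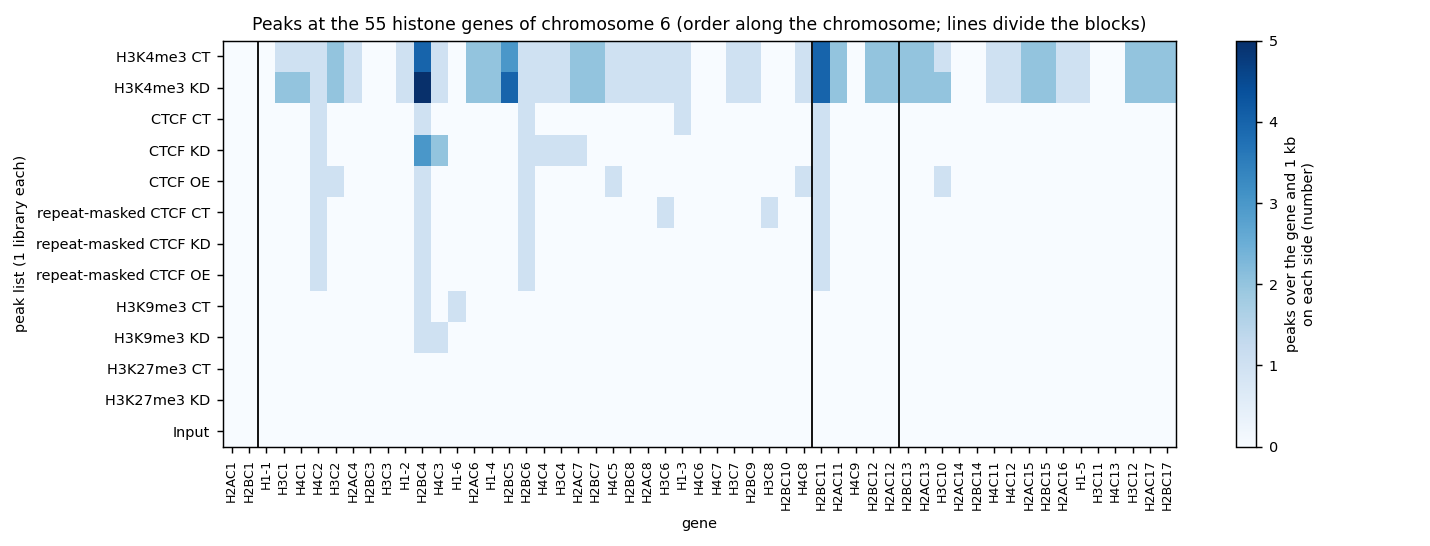
Number of peaks over each of the 55 genes and 1 kb on each side (colour) in the 13 peak lists, with genes in chromosome order and lines between the 4 blocks. H3K4me3 is present at the same 40 genes in CT and KD, CTCF at 5 in CT, 8 in KD and 8 in OE, and the rows of H3K27me3 and the input are empty.

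Among the classes, H3K4me3 was present for 4 of 6 H1 genes, 10 of 12 H2A genes, 11 of 15 H2B genes, 7 of 10 H3 genes and 8 of 12 H4 genes. By block, 0 of 2 genes were marked in block 1, 24 of 32 in block 2, 4 of 5 in block 3 and 12 of 16 in block 4. The 15 members without a peak in either list were H2AC1 and H2BC1 of block 1, H1-1, H2BC3, H3C3, H1-6, H4C6, H4C7, H3C8 and H2BC10 of block 2, H4C9 of block 3, and H2AC14, H2BC14, H3C11 and H4C13 of block 4. The testis genes H1-6, H2AC1 and H2BC1 were thus without the mark. The somatic linker histone gene H1-1 was also without it, while H1-2, H1-3 and H1-4 carried it on their transcripts.

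For 6 of the 40 members the peak did not reach the canonical transcript. A peak overlapped the transcript itself for 34 of 55 members (61.8%) in CT and in KD, against 76.7% and 77.7% of all genes. The 6 were H3C4, H3C6, H2BC6, H2BC9, H1-5 and H3C12. H3C4, an H3 gene, had 328 bp covered in CT and 246 bp in KD, the end of a peak that spans the start of H2AC7 (chr6:26197959-26199316 in CT). H2BC9, an H2B gene, had 204 bp and 180 bp, the end of a peak across H3C7 (chr6:26249093-26250817). H1-5, a linker histone gene, had 230 bp and 360 bp from the peak on H2AC16 (chr6:27864745-27866021). These 3 were also the members with the fewest covered bases in CT among the 40. H2BC6, H1-5 and H3C12 had 0 bp within 1 kb of the canonical start in both lists, and the peak counted for H2BC6 ended at -10174 bp from that start.

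The most bases under H3K4me3 were found over members with long annotated genes. H2BC4 had 3509 bp in CT and 3493 bp in KD, H2BC5 had 3412 bp and 2860 bp, and H2AC6 had 3380 bp and 3366 bp. Within 1 kb of the canonical start, where windows are of equal length, H2BC4 had 1465 bp in CT and 1528 bp in KD, H2BC5 had 1687 bp and 1664 bp, and H2AC6 had 1711 bp and 1705 bp. All 3 lay inside the range of the 37 members with a peak there, from 204 bp for H2BC9 to 1955 bp for H4C8 in CT. H4C8, the last gene of block 2, had 2059 bp in CT and 2057 bp in KD over its whole window. In block 3, the first gene H2BC11 had 2878 bp in CT and 2690 bp in KD and the last, H2AC12, 1428 bp and 1366 bp. In block 4, the first gene H2BC13 had 1546 bp and 1775 bp and the last, H2BC17, 2211 bp and 2141 bp.

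The extent of H3K4me3 was similar in CT and KD. Over the 40 members the median was 1597.5 bp in CT and 1601 bp in KD, and the median KD to CT ratio of single members was 0.982. More bases were covered in KD for 12 members and fewer for 28, with shared peaks counted for each member. Within 1 kb of the start, in windows of equal length, 16 members had more in KD and 21 fewer, with a median ratio of 0.997, and of all genes 8048 had more and 5459 fewer. Over the 15972 protein-coding genes with a peak in both lists the median ratio was 1.01, with more bases in KD for 8802 genes and fewer for 7124. All 7 marked H3 genes had fewer bases in KD, with a median of 1547 bp in CT and 1392 bp in KD and a median ratio of 0.95, although the bases of H3C4 and H3C12 belong to peaks of neighbouring genes. Within 1 kb of the start the H3 genes divided into 2 with more bases in KD and 4 with fewer. Over the whole windows 9 of 11 marked H2B genes had fewer (median ratio 0.968) and 7 of 10 H2A genes (0.988), but within 1 kb of the start 6 of 10 in either class. Over the whole windows 3 of 4 H1 genes had more (1.02) and the H4 genes divided 4 to 4. With 1 library per condition these splits have no error estimate, and the KD list is the longer one, with 81932 peaks against 76814 in CT.

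A difference of at least 1.5-fold in covered bases was reached by 1 member. This was H1-5, with 230 bp in CT and 360 bp in KD (1.57-fold), from the peak on H2AC16 named above. It makes 2.5% of the 40 members, against 3.15% of all genes with a peak in both lists. No member was lower in KD by this limit, against 1.3% of genes. The nearest ratio below it was that of H2AC13, an H2A gene, with 1158 bp in CT and 1519 bp in KD (1.31-fold). H4C2, an H4 gene, had 1186 bp and 1428 bp (1.20-fold), and H2BC13, the partner of H2AC13, had a ratio of 1.15. At the other end stood H3C4 with a KD to CT ratio of 0.75 and H2BC5 with 0.838.

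**Figure D3:**
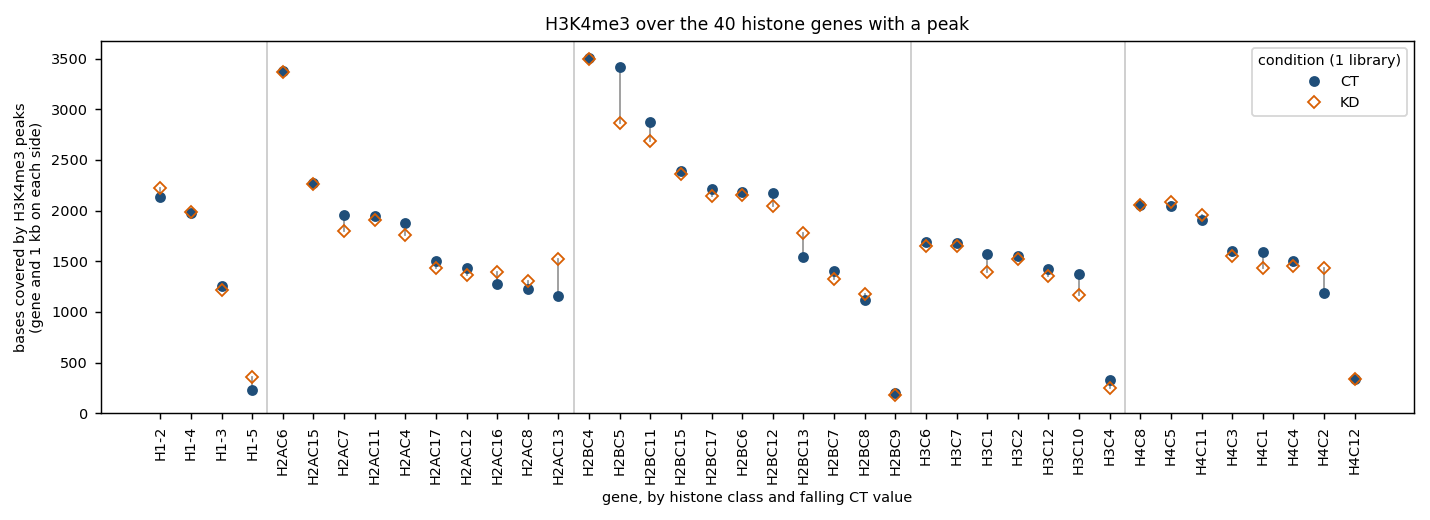
Bases covered by H3K4me3 peaks over the gene and 1 kb on each side for the 40 histone genes of chromosome 6 with a peak, in CT (filled circles) and KD (open diamonds), by class and falling CT value. The symbols of CT and KD lie close together for most genes, and the lowest genes in CT are H2BC9 (204 bp), H1-5 (230 bp) and H3C4 (328 bp).

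Single peaks were kept as well. All 38 peaks of the CT list over the members overlapped a peak of KD, and 40 of the 41 KD peaks overlapped a peak of CT. Of all peaks on the main chromosomes, at gene starts or away from them, 85.7% in CT and 80.4% in KD did so. The KD peak without a partner was 218 bp wide and lay from 932 to 1149 bp downstream of the start of H2BC4 (chr6:26122777-26122994). Peaks over the members had a median width of 1366.5 bp in CT and 1219 bp in KD. All peaks on the main chromosomes, again wherever they lie, had 547 bp and 522 bp. Within 1 kb of the start, in windows of equal length, members with a peak had a median of 1465 bp covered in CT and 1494 bp in KD. All genes with such a peak had 1376 bp and 1403 bp, so wide peaks are not shown to be particular to the members. A single CT peak over the tandem genes H3C1 and H4C1 (chr6:26020384-26022240) was listed in KD as 2 peaks, of 1002 bp at the start of H3C1 and of 678 bp at that of H4C1.

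Just before their starts the members with a peak were often free of the mark. They include both genes of 8 marked pairs of H2A and H2B genes that start back to back. Each gap shared by a pair thus counts for both of its starts. The shares below were not split by pairing, so they do not show the gap for members outside the pairs. At the base 100 bp upstream of the start, 13 of the 37 members with a peak within 1 kb (35.1%) lay in a peak in CT and 13 in KD, against 51.8% and 53.5% of the 13845 other protein-coding genes with such a peak. At 100 bp downstream, 33 of 37 members (89.2%) lay in a peak in both lists, against 71.5% and 75.4%. At 1500 bp upstream, a distance at which dense blocks hold other histone genes, 14 of 37 members (37.8%) in CT and 12 (32.4%) in KD lay in a peak, against 8.83% and 8.50% of the other genes. Over the whole kilobase on each side, the members had a median of 678 bp covered before the start and 951 bp after it in CT, and of 676 bp before it and 947 bp after it in KD. For the other genes these medians were 588 bp before and 828 bp after the start in CT, with 597 bp before and 846 bp after it in KD. These members were selected for a peak by this start window, so the comparison is a description.

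**Figure D4:**
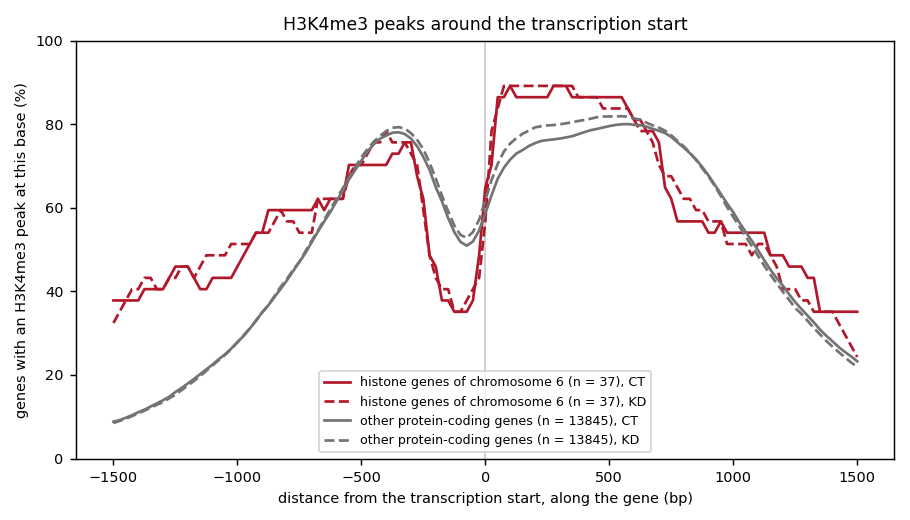
Percent of genes whose base at a given distance from the transcription start (bp, along the gene) lies in an H3K4me3 peak, for 37 histone genes of chromosome 6 and 13845 other protein-coding genes with a peak within 1 kb, in CT (solid) and KD (dashed). Both groups dip just upstream of the start, the members to 35.1% and the others to 50.9% in CT. The gap between an H2A and an H2B gene that start back to back counts for both genes.

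The gap was seen most directly where an H2A gene and an H2B gene start back to back. There were 10 such divergent pairs, all of an H2A and an H2B gene, with 193 to 250 bp between the starts. H3K4me3 was present at 8 pairs and absent from both genes of H2AC1 with H2BC1 and of H2AC14 with H2BC14. Between the starts of H2BC11 and H2AC11 (247 bp) and of H2BC13 and H2AC13 (243 bp), 0 bp were covered in CT and KD, with a peak on either side. The peak on the side of H2AC13 began 272 bp downstream of its start in CT and 152 bp in KD. Of the 80-base words of that transcript 39.2% occur once in hg38, and the part of read placement in this gap was not tested. Between the starts of H2BC4 and H2AC6 (245 bp), whose shared promoter is printed above, 11 bp were covered in CT and 17 bp in KD. H2AC15 with H2BC15 (193 bp) had 14 and 18 bp, H2AC17 with H2BC17 (239 bp) 1 and 0 bp, H2BC12 with H2AC12 (250 bp) 51 and 24 bp, and H2AC7 with H2BC7 (222 bp) 65 and 72 bp. The exception was H2BC8 with H2AC8, where 1 peak covered all 232 bp in both lists.

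Near copies carried different amounts of the mark. H2AC13 and H2AC14, whose promoters are printed above, were 86.8% identical over the promoter and 91.3% over the transcript. H2AC13 had 1158 bp in CT and 1519 bp in KD, and H2AC14 had 0 bp in both. Their H2B partners have promoters 82.1% identical. H2BC13 had 1546 bp in CT and 1775 bp in KD, and H2BC14 had 0 bp in both. The H4 genes H4C11 and H4C12 have promoters 98.3% identical. H4C11 had 1908 bp in CT and 1951 bp in KD, and H4C12 had 337 bp and 339 bp. Reads from such copies may not be placed on the right one. Of the 80-base words of the transcript, 8.71% occurred once in hg38 for H4C11, 8.12% for H4C12, 39.2% for H2AC13 and 36.3% for H2AC14, and the values of these genes are uncertain. With 1 kb on each side the shares were 85.5%, 85.5%, 88.8% and 88.9%. H2BC12 was the next lowest with 65.4%, and 14 of the 15 members without H3K4me3 had only unique words over the transcript and 29 of the 40 with it.

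Promoter features of marked and unmarked members overlapped. Marked here means a peak over the gene or 1 kb on each side. H2BC6 and H1-5, with 0 bp within 1 kb of the start, therefore count as marked, as do H3C4 and H2BC9 through peaks of neighbouring genes. The GC content had a median of 42.5% for 36 marked members (36.3 to 56%) and of 44.2% for 14 unmarked ones (38.7 to 58%). The observed to expected CpG ratio had medians of 0.751 and 0.732. CCAAT was found in 30 of 36 marked and 13 of 14 unmarked promoters, TATAAA in 25 and 8, the octamer core in 15 and 7, and the H1 box in 4 and 2.

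CTCF was found at few members. In CT, 5 of 55 (9.09%, interval 3.02 to 19.95%) had a CTCF peak over the gene or 1 kb on each side, namely H4C2, H2BC4, H2BC6, H1-3 and H2BC11, against 45.7% of all genes, which are far longer. In KD there were 8 (14.5%, interval 6.50 to 26.7%), H4C2, H2BC4, H4C3, H2BC6, H4C4, H3C4, H2AC7 and H2BC11, against 52.7%. In OE there were also 8, H4C2, H3C2, H2BC4, H2BC6, H4C5, H4C8, H2BC11 and H3C10, against 50.8%. Within 1 kb of the start, where windows are of equal length, the count was 1 in CT (1.82%, interval 0.046 to 9.72%), 4 in KD (7.27%, interval 2.02 to 17.6%) and 3 in OE (5.45%, interval 1.14 to 15.1%), against 7.04%, 11.1% and 9.7% of all genes. Each of these intervals held the share of all genes. On the canonical transcript and 1 kb on each side the counts were 2, 5 and 5, because the peaks of H2BC4, H2BC6 and H2BC11 lie in long alternative transcripts.

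A few members had a CTCF peak in a single list. Peaks in KD and not in CT were found for H4C3 and H4C4, which encode H4, for H3C4, which encodes H3, and for H2AC7, which encodes H2A. These 4 are 7.27% of the members, against 13.6% of all genes, and 1 member (H1-3) had a peak in CT and not in KD, against 6.66%. Peaks in OE and not in CT were found for 4 members as well, H3C2, H3C10, H4C5 and H4C8, against 12.7% of all genes, and again 1 (H1-3) had a peak in CT and not in OE, against 7.63%. The CT library enters both comparisons. The windows of all genes are far longer than those of the members, so these shares cannot be compared directly. The CT list holds 42978 peaks, that of KD 47632 and that of OE 47216, and per the labels the p threshold was 0.0025 for CT and KD and 0.005 for OE, and the part of the threshold in these counts was not tested.

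Merged over the lists, CTCF peaks formed 15 loci in the windows of members, and 4 of them were found everywhere. These 4 were present in every unmasked list and also in the 3 lists called on repeat-masked reads, and all 4 held a CTCF site, here a match to a matrix of 15 columns at p below 0.0001. The first was centred 850 bp downstream of the start of H4C2, past the end of its transcript (chr6:26026243-26026623). The others lay in the long annotated genes of H2BC4, of H2BC6 with its centre at -8217 bp from the canonical start (chr6:26175333-26175755) and of H2BC11 at 5558 bp downstream of it (chr6:27126940-27127533). The matrix was learned from peaks that include these 4, so their sites are not independent of it. None of the 4 overlapped a canonical transcript of a member.

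The other loci were found in 1 list of the unmasked reads or in none of them. In KD only there were 2 at H4C3 (chr6:26103551-26103825 and chr6:26104113-26104361), 1 over H4C4 (chr6:26188806-26189104) and 1 between H3C4 and H2AC7 (chr6:26197891-26198185). In OE only there were peaks over H3C2 (chr6:26031533-26031830), at the start of H4C5 (chr6:26204491-26204707), at H4C8 (chr6:26284113-26284365) and at H3C10 (chr6:27811254-27811459). The CT-only locus lay 1878 bp downstream of the start of H1-3 (chr6:26232975-26233242). H3C6 and H3C8, both H3 genes, had a peak in the repeat-masked list of CT alone. None of the loci found only in KD or OE was in a repeat-masked list. Such turnover is common, as the unmasked lists held 17916 loci shared by CT, KD and OE on the main chromosomes. There 19558 were found in CT only, 14742 in KD only and 16023 in OE only. A CTCF site was found in 1 of the 4 KD-only and 1 of the 4 OE-only loci, and all 4 of the former and 3 of the latter overlapped H3K4me3 of CT. On the main chromosomes a site was found in 82.6% of loci shared by CT, KD and OE, in 39.99% of KD-only and in 17.1% of OE-only loci, and 50.5%, 13.6% and 10.6% of them overlapped H3K4me3 of CT. Those shares are for loci anywhere, while the loci above lie in member windows, of which 40 of 55 hold H3K4me3. The overlap is thus in part given by the windows. Between the genes 0 of 2 KD-only loci and 0 of 1 OE-only locus overlapped it. At H4C8, 79.8% of the bases of the OE locus lay in 24-base words that occur at least 10 times in hg38.

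Some of the sites are printed so that their letters can be compared, 5′ to 3′ on the strand of the site with 20 bases on each side, the site in capitals, for 3 constant loci, for a locus between genes that was found in OE alone, and for the sites at H3C4 and H4C5.
H4C2: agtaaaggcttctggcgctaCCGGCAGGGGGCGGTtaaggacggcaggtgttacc
H2BC6: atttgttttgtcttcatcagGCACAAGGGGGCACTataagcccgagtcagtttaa
H2BC11: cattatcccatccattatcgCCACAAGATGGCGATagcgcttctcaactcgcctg
H4C11: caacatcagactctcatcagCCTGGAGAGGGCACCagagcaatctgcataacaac
H3C4: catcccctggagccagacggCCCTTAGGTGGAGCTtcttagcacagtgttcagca
H4C5: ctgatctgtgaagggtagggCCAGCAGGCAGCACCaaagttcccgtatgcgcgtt
The p of the match was 9.11e-08 for H4C2 (chr6:26026425-26026479), 5.57e-07 for H2BC6 (chr6:26175562-26175616), 6.23e-07 for H2BC11 (chr6:27127212-27127266) and 1.26e-06 for the locus nearest to H4C11 (chr6:27819866-27819920). For the KD-only locus at H3C4 it was 5.86e-05 (chr6:26197949-26198003) and for the OE-only locus at H4C5 3.66e-05 (chr6:26204494-26204548). Both are weaker than the sites of the 4 loci found in every list in member windows, from which the matrix was in part learned. Weak sites also stood in loci found in CT, KD and OE outside the windows, with 1.38e-05 upstream of H1-2 (chr6:26065856-26066269) and 7.87e-05 past H4C8 (chr6:26321928-26322600).

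Between the genes inside the blocks, over 170.463 kb outside all member windows, the CTCF lists placed 2 peaks for CT, 5 for KD and 4 for OE. This is 1.17, 2.93 and 2.35 peaks per 100 kb, against 1.35, 1.49 and 1.49 on the main chromosomes. With so few peaks these rates could not be told from those of the main chromosomes. The peaks formed 6 loci, of which 2 were found in CT, KD and OE, upstream of H1-2 (chr6:26065856-26066269) and downstream of H2BC9 (chr6:26258228-26258590). Another, beside the former (chr6:26064563-26064817), was found in KD and OE. The remaining 3 were found in KD alone near H3C8 and H2AC16 and in OE alone near H4C11. Over windows and the space between genes together, a site was held by 5 of 7 peaks of CT (71.4%, interval 29.0 to 96.3%), 8 of 13 of KD (61.5%, interval 31.6 to 86.1%) and 9 of 12 of OE (75%, interval 42.8 to 94.5%). These intervals overlap widely. Of the repeat-masked peaks, 1 of CT, 1 of KD and 2 of OE lay between the genes.

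Outside the blocks but within 50 kb of a block lay 24 further loci. Of these 7 were found in CT, KD and OE, all with a site, among them chr6:26003095-26003423 before H1-1 and chr6:27792152-27792726 before H2BC13, the first genes of blocks 2 and 4. A further 5 were found in KD and OE and not in CT, of which 4 held a site. On the main chromosomes 10545 loci had that pattern, of which 83.7% held a site, beside 17916 shared by CT, KD and OE, of which 82.6% did. Of the 5, 2 had a peak in all 3 repeat-masked lists, that of CT included. They lay 8283 bp past the start of H2AC1 (chr6:25718088-25718470) and 2212 bp past that of H2BC17, the last gene of block 4 (chr6:27895437-27895837). In the long spaces between the blocks, over 1784 kb, the CTCF lists had 35 peaks for CT, 38 for KD and 35 for OE (1.96, 2.13 and 1.96 per 100 kb).

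**Figure D5:**
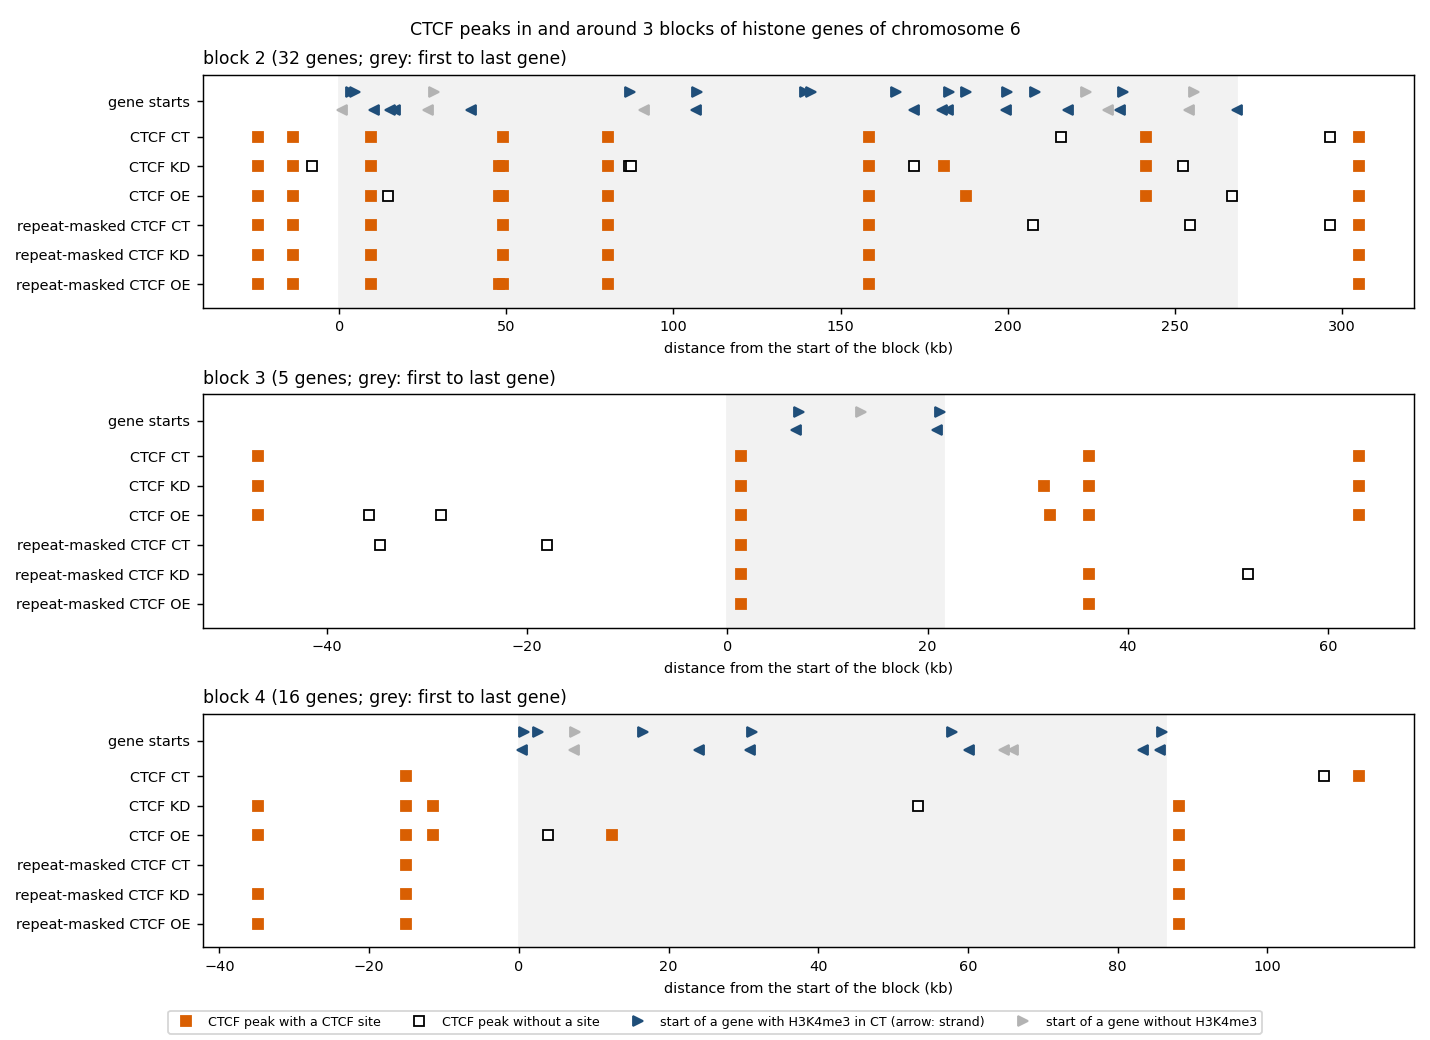
Positions of CTCF peaks of CT, KD and OE from unmasked and from repeat-masked reads (rows) along blocks 2, 3 and 4 and 50 kb on each side, as distance from the start of the block (kb), with filled squares for loci that hold a CTCF site and arrows for the starts of members with (dark) and without (grey) H3K4me3. In member windows, squares stand in all 6 rows at the 4 loci of H4C2, H2BC4, H2BC6 and H2BC11.

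Between the genes inside the blocks the H3K4me3 peaks were too few to be told from the density of the main chromosomes. There were 3 peaks in CT and 4 in KD (1.76 and 2.35 per 100 kb), against 2.40 and 2.56 on the main chromosomes. The spaces between the blocks had 124 and 126 (6.95 and 7.06 per 100 kb).

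Marks of repressed chromatin had few peaks at the members. For H3K9me3, 2 of 55 members had a peak over the gene or 1 kb on each side in CT (3.64%, interval 0.443 to 12.5%) against 17.5% of all genes, and 2 in KD against 8.13%, where the windows of all genes are far longer. Within 1 kb of the start, in windows of equal length, the counts were 0 of 55 in CT against 0.983% of all genes and 1 of 55 in KD (1.82%, H4C3) against 0.574%, and both intervals held the share of all genes. The 2 members of CT in the gene windows shared 1 peak of 163 bp, 1307 bp downstream of the start of H1-6 (chr6:26106747-26106909). It also counts for the long gene of H2BC4. The 2 members of KD shared 1 peak of 157 bp, 897 bp upstream of the start of H4C3 (chr6:26102958-26103114). This peak again lay inside H2BC4 and overlapped H3K4me3 of CT and KD. Neither peak was in the list of the other condition. On the main chromosomes 30.7% of H3K9me3 peaks of CT and 54.1% of those of KD overlapped a peak of the other list. H3K27me3 had no peak at a member in CT or KD, against 3.33% and 2.24% of all genes, and neither had the input, against 1.03%. At 0 of 55 the interval reaches 6.49%, so the counts for H3K27me3 and the input could not be told from those of all genes. No peak of these 3 targets lay between the genes inside the blocks. For these marks the antibodies given in the labels are the reverse of those given in the methods, and each list was taken as the mark its title names.

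Other genes of histone supply were mostly marked, beside the 80.4% and 81.4% of all genes given above, and the lists were not tested against the members. Of 19 histone genes with the same symbol stems on other chromosomes, 16 had H3K4me3 in CT and KD, with medians of 2358 bp and 2302.5 bp, and the 3 without were H1-8, H1-7 and H2BC12L. CTCF was present at 3 of them in CT, 8 in KD and 6 in OE (15.8%, 42.1% and 31.6%), against 45.7%, 52.7% and 50.8% of all genes, in windows that grow with gene length. Within 1 kb of the start, in windows of equal length, it was present at 2, 5 and 3 (10.5%, 26.3% and 15.8%). Of all genes 7.04%, 11.1% and 9.70% had it there. All 9 replication-independent histone genes (medians of 2112 bp and 2119 bp), all 17 genes of histone gene transcription and message processing, and all 11 histone chaperones carried H3K4me3 in both lists. NPAT had 2009 bp in CT and 2115 bp in KD, HINFP, an activator of H4 genes, 1523 bp and 1599 bp, SLBP 1173 bp and 1587 bp, and POU2F1 3220 bp and 3980 bp. None of these lists had a gene with a difference of 1.5-fold. Of the 20 other protein-coding genes between the first and the last member, 17 were marked. As a check of the cell line, H3K4me3 stood within 1 kb of the start of 7 of 7 genes used in HEK-293 cells, in both lists. The same held for 1 of 8 marker genes of other cell types, MYOD1. Of all genes 69.7% in CT and 70.4% in KD had a peak there. Over the gene and 1 kb on each side, the window of the other lists here, 4 of the 8 markers of other cell types had a peak in CT and 5 in KD. A peak is not expression.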

How the data were processed

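Per the labels and the methods, the authors mapped single-end ChIP-seq reads of HEK-293T cells to hg38 with bowtie2 and called peaks with MACS2 in each library, for CTCF on unmasked and on repeat-masked reads. The deposited lists hold chromosome, start and end with no score, count or other unit, so depth behind a peak is not known from them. Starts were read as counted from 0 and are printed counted from 1, and another convention would shift them by 1 bp. Per the labels the p thresholds were 0.0025 for CTCF in CT and KD, 0.005 in OE and 0.001 for the repeat-masked lists, the histone marks and the input, while the methods name a single threshold for unmasked reads. 13 lists of 10 libraries were used, and 6 lists of exclusive CTCF peaks were not used here.

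Members were 55 genes of GENCODE release 44, and the members and comparison lists were chosen with earlier results of these data known. A gene counted as having a peak when at least 1 bp of it overlapped the gene and 1 kb on each side. Covered bases were summed under merged peaks, with a limit of 1.5-fold between CT and KD. Shares have exact Clopper-Pearson 95% intervals, which cover counting error only. CT, KD and OE were not tested against each other, for want of replicates. Genes were named by rule: members without H3K4me3, members with a peak of CTCF, H3K9me3, H3K27me3 or input, members past the fold limit, the 3 with the most and the 3 with the fewest covered bases in CT, and the first and last of each block. Further members named beside them were chosen after their values were seen.

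CTCF sites were matches at p below 0.0001, on either strand, to a matrix of 15 columns learned from 12859 repeat-masked CT peaks that overlapped KD and OE peaks (a site in 12085, after 10 rounds). Repeats were bases in 24-base words that occur at least 10 times in hg38. Identities of near copies come from global alignment. Promoters came from RefSeq (GRCh38.p14), and genomic sequences from hg38. Peak overlap, covered bases and motif search were tested on simulated data. Python 3.11.15, numpy 2.4.6, scipy 1.17.1, pysam 0.24.0, numba 0.67.0 and matplotlib 3.10.9 were used. Alternatives changed the window, the fold limit, the masking of reads, the number of peaks kept and the site rule. Some windows cut to the canonical transcript were added after seeing the data.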

Additional observations from a re-analysis of the deposited data

How the results depend on the processing

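The number of members with H3K4me3 stayed within 1.5 times of 40 in CT and KD under all alternatives run, down to 34 on the canonical transcript without flank, which was chosen after seeing the data. The median of covered bases was 494 in CT and 494 in KD without flanks, as the shorter window allows. Members at least 1.5-fold higher in KD numbered 2 without flanks, 0 with 2 kb flanks, 0 within 1 kb of the start, 0 at a limit of 2-fold and 3 with only the widest 40000 peaks, where 2 were lower. Members with CTCF in CT numbered 3 without flanks, 2 with the widest 20000 peaks and 2 on the canonical transcript and 1 kb (added after seeing the data). In KD they numbered 5 without flanks, 4 in the repeat-masked lists, 3 with the widest peaks and 5 on the canonical transcript, and in OE 4, 4 and 5 in the last 3 of these. Members with H3K9me3 numbered 1 in CT and 1 in KD both without flanks and on the canonical transcript and 1 kb. CTCF peaks between genes numbered 4 in CT without flanks, and 1 in CT, 1 in KD and 2 in OE in the repeat-masked lists. With a consensus core in place of the matrix, a site was held by 3 CTCF peaks of CT, 4 of KD and 4 of OE. The cause of these shifts was not tested beyond the windows, limits and lists named. No paired analysis was possible because each condition had 1 library and the labels give no replicate numbers.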
